A study of Mus musculus with 6 samples.

Results

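The miRNAs described here are miR-126, miR-143 and miR-145, which are known from the cells of blood vessels, in the mouse hippocampus after loss of Dicer1 from excitatory neurons. They were taken by name, both arms of each hairpin, and the names matched 9 rows of 2035 miRNA rows and 109108 rows in all. The miR-126a and miR-126b rows lie on opposite strands of the same DNA and share their reads, so the 9 rows stand for 7 distinct places. Of these, 5 places (7 rows) had enough counts to be tested, and the rows of miR-143-5p and miR-145b did not.

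Small RNA was sequenced from the hippocampus of male C57BL/6 mice aged 3 months, in 3 libraries of Dicer1-ifKO mice and 3 libraries of WT mice. Dicer1-ifKO mice carried Dicer1 flox/flox and the CaMKIIa-creERT2 transgene, a recombinase that tamoxifen switches on and whose promoter is active in excitatory forebrain neurons. WT mice carried Dicer1 flox/flox without the transgene, and both groups were taken 3 weeks after tamoxifen. Each library was a pool of RNA from 3 mice, so 3 libraries make 9 mice per genotype, whereas the design text of the series speaks of 12, and the tests measure the spread between pools. Because whole hippocampus was used, the vessel cells were sequenced together with neurons and glia, and fewer cells of a type cannot be told apart from less RNA per cell. The Dicer1 span itself held 32 to 37 counts in Dicer1-ifKO and 33 to 47 in WT libraries, fragments that do not resolve a floxed exon and so check no label.

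Dicer cuts most precursor hairpins into mature miRNAs in all cell types, while the recombinase of this model is restricted by its promoter. miR-126 is made from an intron of Egfl7 in endothelial cells, where it is known to repress Spred1 and Pik3r2, inhibitors of signalling downstream of vascular endothelial growth factor. miR-143 and miR-145 come from a common transcript in smooth muscle cells and pericytes. They are known to promote the contractile state, miR-145 through Klf4 and Klf5 and miR-143 through Elk1.

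The miR-126 sequences are shown because they explain why its 4 rows are 2 measurements. The mature sequences below are those RefSeq gives on GRCm38.p6 for 3 of the 9 member rows, written 5′ to 3′ with the seed (bases 2 to 8) in capitals.
miR-126a-3p: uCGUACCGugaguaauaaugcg
miR-126b-5p: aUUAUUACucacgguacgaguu
miR-126b-3p: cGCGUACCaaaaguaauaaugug
None of these seeds occurs in another of the 1679 mature mouse miRNAs of that table (0 other names for each). The rows of miR-126a-3p and miR-126b-5p share 19 positions, and the sequences are complementary at all 19.

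The hairpins themselves show the overlap, here with the mature sequences given above in capitals.
Mir126a, chr2:26591357-26591429, plus strand, GRCm38.p6: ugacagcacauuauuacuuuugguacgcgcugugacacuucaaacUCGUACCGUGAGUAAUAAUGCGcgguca
Mir126b, chr2:26591363-26591420, minus strand, GRCm38.p6: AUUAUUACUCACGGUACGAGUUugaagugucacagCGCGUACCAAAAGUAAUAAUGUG
In GENCODE M21 the Mir126a hairpin lies in intron 7 of the Egfl7-201 transcript, between positions 26591064 and 26591663 of chromosome 2. The miR-126a-5p row (26591365 to 26591385) and the miR-126a-3p row (26591402 to 26591423) are separated by 16 nt of loop.

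The counts of opposite-strand rows were almost the same in every library. The miR-126b-3p row held 1 to 8 counts more than the miR-126a-5p row, and the miR-126b-5p row held 3 to 6 more than the miR-126a-3p row. Strand was thus not used in the counting, and the reads cannot be assigned to miR-126a or miR-126b. Each pair is therefore given once, with the values of its row with more counts, as the miR-126a-5p place and the miR-126a-3p place.

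The host gene of miR-126 showed the same reads a second time. The Egfl7-001 span (chromosome 2, 26581056 to 26592684) held 9775, 7014 and 6916 counts in Dicer1-ifKO replicates 1, 2 and 3, against 6158, 5635 and 8480 in WT replicates 1, 2 and 3. The miR-126 places in it summed to 9784, 7019 and 6926 counts in Dicer1-ifKO and 6165, 5640 and 8491 in WT. The span thus held 5 to 11 counts fewer than the miRNA places summed. None of the 10 Egfl7 spans that leave out the miRNA held more than 6 counts over all libraries, so the data hold no separate level of Egfl7.

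miR-143 and miR-145a lie 1301 nt apart on the minus strand of chromosome 18. The miR-143-3p row covers 61649199 to 61649219, the miR-145a-5p row 61647866 to 61647888 and the miR-145a-3p row 61647827 to 61647848 (GRCm38). RefSeq places both hairpins inside Carmn, a long noncoding RNA (61645878 to 61665538), whereas the Carmn gene of GENCODE M21 starts at 61649625 and leaves both outside. miR-145b is listed elsewhere on the chromosome, at 69022237 to 69022257.

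No member differed between the genotypes in the test across all features. Of the 7 tested member rows, 0 were lower and 0 were higher in Dicer1-ifKO (edgeR's quasi-likelihood test, Benjamini-Hochberg over 6539 features, threshold 0.05), and DESeq2 also called 0. Among all 546 tested miRNA rows 6.59% were called, all of them lower, so about that share was the background for this count. The number of miRNA rows called, 36 here, depended on the fit: it was 8 with TMM taken over miRNA rows, 3 with the replicate number as a block, and 1 to 70 when 1 library was left out. With miRNA rows alone, 11 were higher besides 36 that were lower. At the unadjusted level of 0.05, 0 member rows passed here, against 33.2% of all tested miRNA rows. In the alternatives 0 to 6 rows passed, a count in which both rows of a miR-126 place hold the same reads. The CPM ranges of the genotypes overlapped at each of the 5 tested places, while 35.9% of tested miRNA rows had ranges that did not overlap.

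miR-143-3p was the most abundant member and ranked 23 of 482 distinct miRNA places by mean count. Its level was 374, 316 and 305 CPM in Dicer1-ifKO replicates 1, 2 and 3, against 264, 234 and 399 CPM in WT replicates 1, 2 and 3 (CPM here is the count scaled to the TMM-adjusted sum of feature counts, taken after repeated spans were removed). The highest of the 6 values was WT replicate 3, and the other WT libraries lay below all Dicer1-ifKO libraries. Means were 332 ± 37.5 CPM in Dicer1-ifKO and 299 ± 87.8 CPM in WT (SD, n = 3 each), a log2 change of 0.15 ± 0.19 (SE, edgeR adjusted p = 0.96). The 95% interval of the change ran from 0.83-fold to 1.48-fold, so a rise or fall within it was not detectable.

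The miR-126a-5p place ranked 58 of 482. It stood at 166, 80.7 and 94.4 CPM in Dicer1-ifKO replicates 1, 2 and 3, against 76.7, 68.4 and 117 CPM in WT replicates 1, 2 and 3. Dicer1-ifKO replicate 1 was the highest library and WT replicate 3 the next, with the other 4 between 68.4 and 94.4 CPM. The mean was 114 ± 45.9 CPM in Dicer1-ifKO and 87.5 ± 26.2 CPM in WT (SD, n = 3 each). Its log2 change of 0.38 ± 0.33 (SE, edgeR adjusted p = 0.93) was the largest among the 5 places and rested on 1 library: without Dicer1-ifKO replicate 1 it was -0.0014.

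The miR-126a-3p place, the arm known for repressing Spred1, ranked 75. It stood at 69.5, 51.1 and 52.9 CPM in Dicer1-ifKO, against 49.1, 49.4 and 65.3 CPM in WT, each in the order of replicates 1, 2 and 3. Again Dicer1-ifKO replicate 1 and WT replicate 3 were the highest libraries. Means of 57.8 ± 10.1 CPM in Dicer1-ifKO and 54.6 ± 9.28 CPM in WT (SD, n = 3 each) gave a log2 change of 0.08 ± 0.18 (SE, edgeR adjusted p = 0.99), with a 95% interval of 0.81-fold to 1.38-fold. Without Dicer1-ifKO replicate 1 the log2 change was -0.07.

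miR-145a-5p, the arm known for repressing Klf4, was the steadiest member. It stood at 6.31, 6.31 and 5.98 CPM in Dicer1-ifKO replicates 1, 2 and 3, and at 6.49, 5.91 and 6.47 CPM in WT replicates 1, 2 and 3. All 6 libraries lay close together, and the SD was 3.06% of the mean in Dicer1-ifKO and 5.24% in WT. The log2 change was -0.02 ± 0.16 (SE, edgeR adjusted p = 0.99), with a 95% interval on the log2 scale of -0.36 to 0.32. Its sign depended on the scaling: with TMM taken over miRNA rows the value was 0.21.

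The other arm, miR-145a-3p, varied more among WT pools. It stood at 4.94, 4.51 and 4.43 CPM in Dicer1-ifKO replicates 1, 2 and 3, against 3.00, 2.94 and 5.83 CPM in WT replicates 1, 2 and 3. As for miR-143-3p, WT replicates 1 and 2 lay below every Dicer1-ifKO library and WT replicate 3 lay above all of them. The SD was 5.94% of the mean in Dicer1-ifKO and 42.0% in WT. Its log2 change was 0.24 ± 0.25 (SE, edgeR adjusted p = 0.94), and without WT replicate 3 it was 0.68 (edgeR adjusted p = 0.24, the range over all alternatives being 0.098 to 1.00).

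The remaining members were at the limit of detection. miR-143-5p had 2, 2 and 2 counts in Dicer1-ifKO replicates 1, 2 and 3, against 0, 4 and 1 in WT replicates 1, 2 and 3. The 0 of 12940 miR-143 counts in WT replicate 1 allows a share of up to 0.0232%. miR-145b had 1 count in Dicer1-ifKO replicate 2 and 0 in the other libraries. Neither row gives a fold change.

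**Figure D1:**
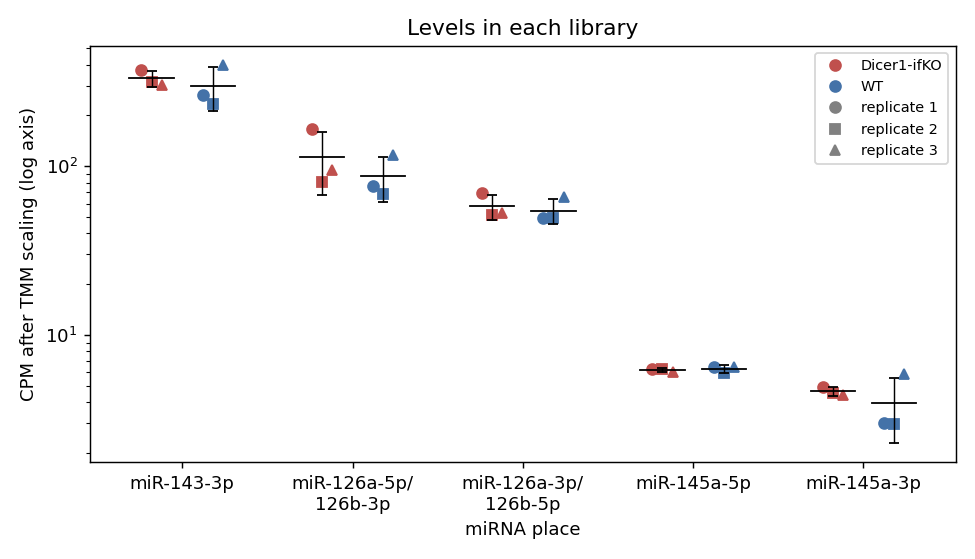
Level of each tested place in each library, in CPM after TMM scaling on a log axis, with Dicer1-ifKO to the left of WT, marker shapes for the replicates, and black bars for the mean and SD (n = 3 each). The ranges of the genotypes overlap at all 5 places, and WT replicate 3 is the highest WT library at miR-143-3p (399 CPM), both miR-126 places and miR-145a-3p (5.83 CPM), but not at miR-145a-5p.

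The order of the levels was the same in every library. miR-143-3p was highest, then the miR-126a-5p place, the miR-126a-3p place, miR-145a-5p and miR-145a-3p. The member rows are 21 to 23 nt long, and the levels are per row, not per length. Across libraries, the lowest miR-143-3p value (234 CPM) lay above the highest value of the miR-126a-5p place (166 CPM), whereas the 2 miR-126 places overlapped, at 68.4 CPM or more and at 69.5 CPM or less. The miR-145a arms were barely separate across libraries, since miR-145a-5p did not go below 5.91 CPM and miR-145a-3p did not exceed 5.83 CPM.

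The hairpins of the common miR-143 and miR-145 transcript thus gave very different counts. miR-143-3p held 59.3, 50.1 and 50.9 times the counts of miR-145a-5p in Dicer1-ifKO replicates 1, 2 and 3, against 40.7, 39.7 and 61.6 times in WT replicates 1, 2 and 3. The WT values again fell on both sides of the Dicer1-ifKO values. The mean log2 ratio of miR-145a-5p to miR-143-3p was -5.74 ± 0.13 in Dicer1-ifKO and -5.53 ± 0.36 in WT (n = 3 each, SD). By exact permutation this gave p = 0.4, or 0.6 adjusted over 6 quantities.

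Seen against all tested miRNA rows, the members lay in the upper part of a distribution that sat below 0. The median log2 change of the 5 places was 0.15 and 4 of the 5 lay above 0, while the median over all 546 tested miRNA rows was -0.24 and 75.5% of them lay below 0. Features other than miRNAs had a median of -0.03. The share of tested miRNA rows with a lower log2 change was 94.9% for the miR-126a-5p place, 91.4% for miR-145a-3p, 88.3% for miR-143-3p, 83.9% for the miR-126a-3p place and 72.7% for miR-145a-5p. These positions are a description, since no member passed the test.

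**Figure D2:**
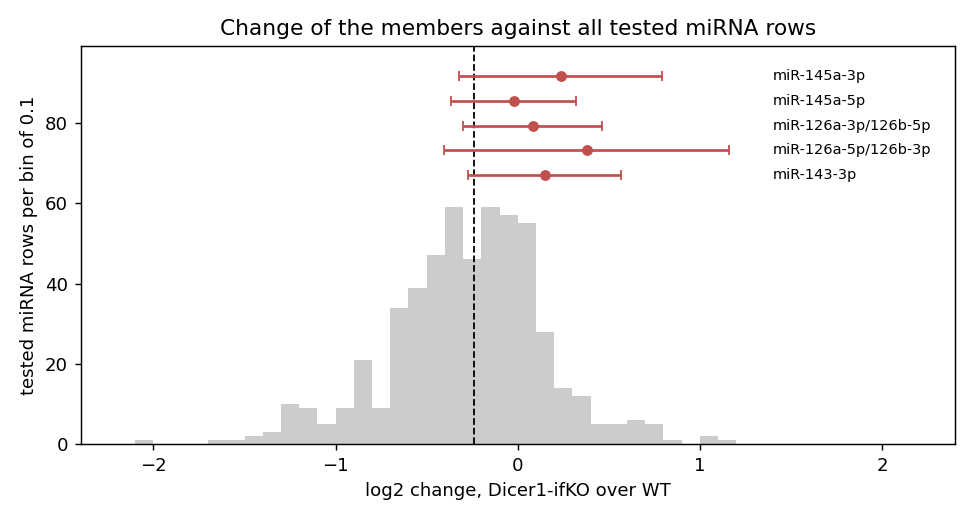
Log2 change (Dicer1-ifKO over WT) of the 5 tested places as points with 95% intervals, above a histogram of the 546 tested miRNA rows, whose median of -0.24 is the dashed line. All 5 intervals include 0, and all 5 points lie to the right of the dashed line.

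When TMM was taken over miRNA rows instead of all features, the median of the miRNA rows moved from -0.24 to 0.0013 and the members moved up with it. Their log2 changes were then 0.41 for miR-143-3p, 0.62 for the miR-126a-5p place, 0.32 for the miR-126a-3p place, 0.21 for miR-145a-5p and 0.52 for miR-145a-3p. In that scaling 0 members were called as well, with an edgeR adjusted p between 0.45 and 0.69. At an unadjusted edgeR p of 0.05, 4 of the 7 member rows passed in that scaling, all higher in Dicer1-ifKO, against 20.9% of all miRNA rows. They were miR-143-3p, miR-145a-3p and both rows of the miR-126a-5p place, which hold the same reads. In the fit of miRNA rows alone, 6 of 7 rows passed at that level, all higher, against 28.5% of miRNA rows. They stand for fewer distinct places, namely both miR-126 places, miR-143-3p and miR-145a-3p, but not miR-145a-5p. The row counts thus overstate the share of members that passed. The smallest edgeR adjusted p of the 5 places in that fit was 0.067, for miR-143-3p. With no count filter, 2 of 9 member rows passed unadjusted, against 15.6% of miRNA rows. Both hold the same reads, those of the miR-126a-5p place.

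The share of all miRNA counts that the vessel miRNAs took does not depend on the scaling between libraries, but it also rises where other miRNAs fall. miR-143 and miR-145 together took 0.934%, 0.858% and 0.828% of the miRNA counts in Dicer1-ifKO replicates 1, 2 and 3, against 0.655%, 0.532% and 0.800% in WT replicates 1, 2 and 3. Every Dicer1-ifKO library lay above every WT library, although WT replicate 3 came close. Of 482 tested miRNA places taken singly, 12.0% were higher in that sense. Nearly all of the share was miR-143-3p, which alone took 0.906%, 0.829% and 0.801% in Dicer1-ifKO. In WT it took 0.632%, 0.513% and 0.776%, again in replicate order. The exact 95% binomial intervals of the summed share were at most ± 0.0144 percentage points, which covers counting error only. The log2 ratio to the other miRNAs was -6.82 ± 0.09 in Dicer1-ifKO and -7.24 ± 0.30 in WT (SD, n = 3 each), a difference of 0.42 or 1.34-fold. Its two-sided exact permutation p was 0.1, the smallest that 3 against 3 libraries can give, and the adjusted p over 6 quantities was 0.6. With only the miRNA rows not called as the denominator, the difference in log2 ratio was 0.36.

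For miR-126 the shares overlapped. Its places took 0.570%, 0.346% and 0.387% of the miRNA counts in Dicer1-ifKO replicates 1, 2 and 3, against 0.301%, 0.258% and 0.355% in WT replicates 1, 2 and 3. Dicer1-ifKO replicate 2 lay below WT replicate 3, and Dicer1-ifKO replicate 1 stood far above the rest. The log2 ratio to the other miRNAs was -7.86 ± 0.38 in Dicer1-ifKO and -8.36 ± 0.23 in WT (SD, n = 3 each). This difference of 0.50 had an exact permutation p of 0.2 (adjusted p = 0.6). The overlap depended on the denominator. Without the 10 most abundant miRNAs in it, the exact permutation p was 0.1 and the genotypes did not overlap. With only the miRNA rows not called, it was 0.2. Taken singly, the shares of miR-143-3p, miR-145a-3p and the miR-126a-3p place were higher in every Dicer1-ifKO library than in every WT library. This held for 12.0% of the 482 tested miRNA places, while 22.4% were lower in the same sense. The single shares of miR-145a-5p and the miR-126a-5p place overlapped between the genotypes.

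The endothelial and the smooth muscle miRNAs were not shown to differ from each other. The log2 ratio of miR-126 to miR-143 and miR-145 was -0.71, -1.31 and -1.10 in Dicer1-ifKO replicates 1, 2 and 3, against -1.12, -1.05 and -1.17 in WT replicates 1, 2 and 3. Dicer1-ifKO replicate 1 lay above the WT range, replicate 2 below it and replicate 3 inside it. The difference between the means was 0.07 (exact permutation p = 0.8, adjusted p = 0.96), and without Dicer1-ifKO replicate 1 it was -0.09.

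**Figure D3:**
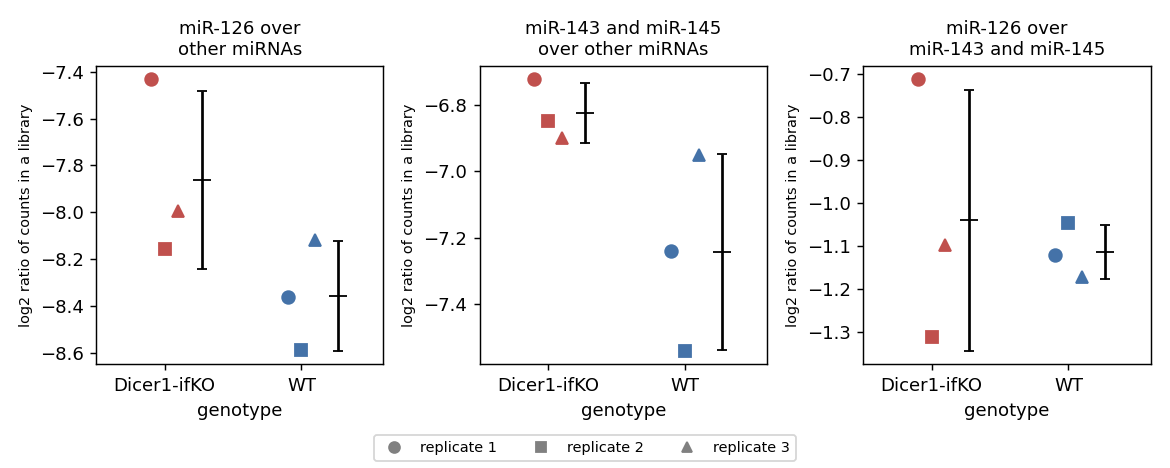
Log2 ratio of counts within each library for miR-126 over other miRNAs, miR-143 and miR-145 over other miRNAs, and miR-126 over miR-143 and miR-145, with Dicer1-ifKO left of WT, marker shapes for the replicates, and the mean and SD beside them (n = 3 each). Only in the middle panel, mostly counts of miR-143-3p, do the genotypes not overlap (means of -6.82 in Dicer1-ifKO and -7.24 in WT). The vertical axes do not start at 0.

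The miR-126 places both held many counts, with the miR-126a-5p place ahead. The miR-126a-3p place held 29.5%, 38.8% and 35.9% of the miR-126 counts in Dicer1-ifKO replicates 1, 2 and 3, against 39.01%, 42.0% and 35.8% in WT replicates 1, 2 and 3. Dicer1-ifKO replicate 1 had the lowest share of the miR-126a-3p place and WT replicate 2 the highest, and the genotypes overlapped. The exact 95% binomial intervals were at most ± 1.30 percentage points, so the pools differed by more than counting error. The mean was 34.7% ± 4.76 in Dicer1-ifKO and 38.9% ± 3.10 in WT (n = 3 each, SD), with p = 0.3 by exact permutation and 0.6 after adjustment.

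miR-143 and miR-145a divided their arms in other ways. Almost all miR-143 counts were from the 3p arm, with a mean share of 99.99% in both genotypes (exact permutation p = 1). For miR-145a the 3p arm held 43.9%, 41.7% and 42.5% of the counts in Dicer1-ifKO replicates 1, 2 and 3, against 31.6%, 33.3% and 47.4% in WT replicates 1, 2 and 3. These shares rest on 424 to 576 counts per library, with exact 95% binomial intervals of at most ± 4.60 percentage points, so WT replicates 1 and 2 lay apart from WT replicate 3 by more than counting error. They were described after their values were seen and were not tested.

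Leaving out WT replicate 3 moved most of these values. Without it, the log2 change was 0.46 for miR-143-3p (edgeR adjusted p = 0.49), 0.69 for the miR-126a-5p place, 0.27 for the miR-126a-3p place and 0.04 for miR-145a-5p. Without WT replicate 2 the value for miR-143-3p was 0.0073, and without Dicer1-ifKO replicate 1 it was 0.05. In each of the 6 fits that left out a library, 0 member rows were called by edgeR. At an unadjusted p of 0.05, 2 rows (miR-143-3p and miR-145a-3p) passed without WT replicate 3, against 24.4% of miRNA rows, and 0 passed in the other 5 fits.

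**Figure D4:**
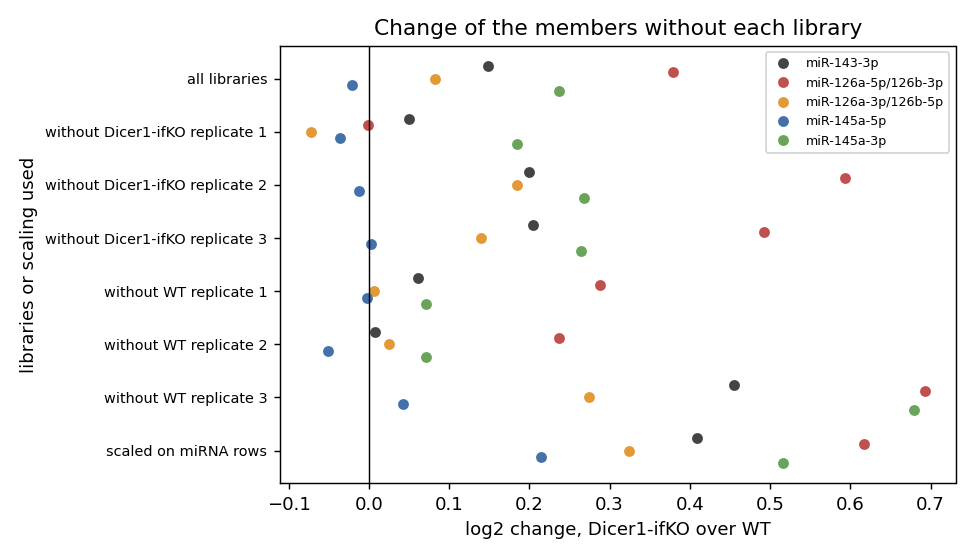
Log2 change (Dicer1-ifKO over WT) of each tested place, as points, with all libraries, with each library left out in turn, and with TMM taken over miRNA rows. The points of miR-145a-5p stay near 0 except in the miRNA scaling (0.21), and all 5 places move up in that scaling. Among the fits that leave out 1 library, the miR-126a-5p place moves most without Dicer1-ifKO replicate 1 and the miR-126a-3p place, miR-143-3p and miR-145a-3p without WT replicate 3.

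The libraries with much miR-126 and miR-143 were also those with much of some other miRNAs. For the miR-126a-5p place, the 5 miRNAs with the nearest profile over the 6 libraries began with miR-153-3p, known from neurons. The others were miR-376b-5p, miR-3071-3p (opposite miR-136-5p), miR-30e-5p and miR-21a-5p. Likeness was the root mean square distance of log2 CPM centred on the mean of the 6 libraries, over 335 miRNAs with at least 50 counts per library. These distances were 0.044 to 0.13, against a median of 0.48 over the 335. Picked as the nearest, they lie below the median by selection, here and for miR-143-3p. For miR-143-3p the nearest were miR-133a-3p, known from muscle, then miR-3065-5p (opposite miR-338-3p, known from oligodendrocytes), miR-15a-5p, miR-30c-2-3p and miR-93-5p, at 0.060 to 0.11 against a median of 0.33. Set among the same miRNAs, the miR-126a-3p place and miR-143-3p would each rank 28 by nearness to the miR-126a-5p place. There miR-145a-3p would rank 46 and miR-145a-5p 118. By nearness to miR-143-3p, the miR-126a-3p place and miR-145a-3p would each rank 12, miR-145a-5p 84 and the miR-126a-5p place 89. The members thus did not share 1 profile.

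These nearest miRNAs differ in their known cell types, and those nearest to miR-126 had a GC content below the median. The GC content was 36.4% to 40.9% in the 5 nearest to the miR-126a-5p place, while the median over the 297 of 335 miRNAs with a sequence was 47.8%. The sequence of the miR-126b-3p row has 39.1%. For 4 of the 5 nearest to miR-143-3p that have a sequence, the GC content was 40.9% to 52.2%. The part of base composition in the values of the members was not tested.

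The lists of other cell types were read beside the members. Of 16 other miRNAs known from vessels, 12 were tested and 0 were lower or higher (edgeR over all features, 0 at an unadjusted p of 0.05, 0 by DESeq2). Their median log2 change was 0.03. Their summed level was 600, 589 and 592 CPM in Dicer1-ifKO replicates 1, 2 and 3, against 481, 866 and 869 CPM in WT replicates 1, 2 and 3, most of it from miR-99b-5p. That sum was high in WT replicate 2, where most members were low. The next in level, miR-21a-5p and miR-130a-3p, instead had Dicer1-ifKO replicate 1 (62.8 and 37.97 CPM) and WT replicate 3 (56.2 and 38.7 CPM) as their highest libraries, as most members did. Their log2 changes were 0.15 and 0.01.

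Blood left in the vessels would bring miRNAs of red cells. The 3 tested erythrocyte miRNAs of 5 in the list summed to 10.96, 10.1 and 9.06 CPM in Dicer1-ifKO replicates 1, 2 and 3, against 12.7, 8.92 and 10.9 CPM in WT replicates 1, 2 and 3, and 0 were called (edgeR and DESeq2, 1 at an unadjusted p of 0.05). Their highest library was WT replicate 1, in which the members were low except miR-145a-5p. miR-451a, the most abundant of them, is made without Dicer. It had 9.27 ± 0.85 CPM in Dicer1-ifKO and 10.3 ± 1.86 CPM in WT (SD, n = 3 each), a log2 change of -0.15. miR-144-5p went the other way, at 0.51, 0.30 and 0.47 CPM in Dicer1-ifKO replicates 1, 2 and 3, against 0.27, 0.21 and 0.28 CPM in WT replicates 1, 2 and 3, a log2 change of 0.73 (edgeR adjusted p = 0.52) on a mean of 15.8 counts. For miR-144-3p the log2 change was 0.07.

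The summed oligodendrocyte list ordered the libraries much as the summed members did. Most of the member sum was miR-143-3p, and miR-338-3p lies opposite miR-3065-5p, picked above as near to miR-143-3p. The likeness of the sums is thus largely that pick seen again. The 4 tested miRNAs of the list summed to 347, 257 and 258 CPM in Dicer1-ifKO replicates 1, 2 and 3, against 233, 217 and 339 CPM in WT replicates 1, 2 and 3. Of these miRNAs 0 were called (edgeR and DESeq2, 0 at an unadjusted p of 0.05). Dicer1-ifKO replicate 1 and WT replicate 3 were the highest libraries of the list sum and WT replicates 1 and 2 the lowest. This held for the summed members but not for miR-145a-5p, which was highest in WT replicate 1. Most of this sum was miR-338-3p, at 266, 194 and 201 CPM in Dicer1-ifKO replicates 1, 2 and 3, against 175, 157 and 261 CPM in WT replicates 1, 2 and 3. The smaller members of the list departed from it in part. miR-338-5p stood at 19.3 CPM in Dicer1-ifKO replicate 1 and 19.4 CPM in WT replicate 1. miR-219a-2-3p was also highest in Dicer1-ifKO replicate 1 (58.7 CPM) and WT replicate 3 (56.2 CPM). It was lower in Dicer1-ifKO replicate 3 (39.6 CPM) than in WT replicate 2 (42.2 CPM). The least abundant of the 4 had the largest log2 change of the list, 0.76. The 2 tested leukocyte miRNAs of 6 summed to 196.6, 194 and 176 CPM in Dicer1-ifKO, against 141, 172 and 175 CPM in WT, also with 0 called by edgeR or DESeq2 and 0 at an unadjusted p of 0.05. The part of the cell makeup of the pools in the values of miR-126, miR-143 and miR-145 was not tested.

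Neuronal miRNAs were abundant, which checks for neurons in the tissue but not for the hippocampus. Their summed level lay lower in Dicer1-ifKO replicates 2 and 3 than in every WT library. The 10 tested miRNAs of that list summed to 1764, 1373 and 1507 CPM in Dicer1-ifKO replicates 1, 2 and 3, against 1699, 1699 and 2126 CPM in WT replicates 1, 2 and 3. Of these, 2 were lower and 0 higher (edgeR adjusted p), against the background of 6.59% of miRNA rows called, and 0 were called when TMM was taken over miRNA rows. Their median log2 change was -0.19 over all features and 0.05 in the miRNA scaling. Not all of them went with the sum: in the fit over all features 2 of the 10 lay above 0. The highest, at 0.36, was miR-153-3p, the nearest profile to the miR-126a-5p place. The most abundant, miR-128-3p, had a log2 change of -0.43, and the next, miR-9-5p, had 0.02. miR-9-5p stood at 384, 294 and 350 CPM in Dicer1-ifKO replicates 1, 2 and 3, against 300, 305 and 406 CPM in WT replicates 1, 2 and 3.

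**Figure D5:**
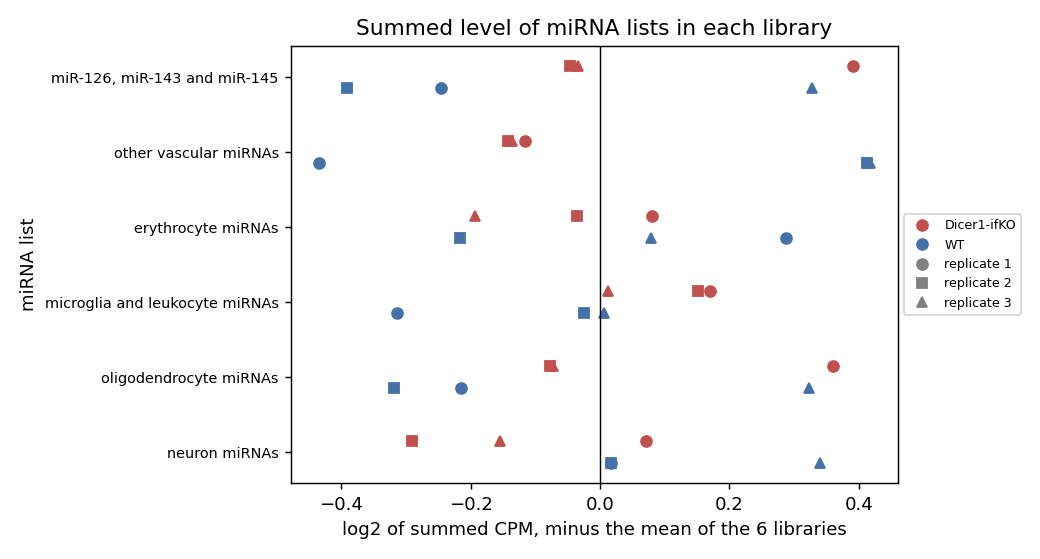
Summed level of each miRNA list in each library, as log2 CPM minus the mean of the 6 libraries, with Dicer1-ifKO drawn above WT in each row and marker shapes for the replicates. The members, mostly miR-143-3p, and the oligodendrocyte list, mostly miR-338-3p, both have Dicer1-ifKO replicate 1 (0.39 and 0.36) and WT replicate 3 (0.33 and 0.32) at the right.

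The transcripts of vessel cells gave little to set beside their miRNAs. Of 24 endothelial genes listed, 4 had a span with enough counts, and 1 of these was Egfl7, whose counts are those of miR-126. The next were Fli1, an endothelial transcription factor (mean of 18 counts per library, log2 change -0.49), and Eng, which encodes endoglin (13.2 counts, -0.85). The remaining endothelial span held fewer counts and had the highest log2 change of that list, 0.27. With Egfl7, 2 of the 4 lay above 0. Among 17 smooth muscle and pericyte genes, Cspg4 of pericytes (15 counts, 0.73) and Rgs5 (12.3 counts, -0.14) were tested. None of these 6 spans was called by edgeR or DESeq2 (0 of 4 and 0 of 2, with 1 in each list at an unadjusted p of 0.05), and 0.28% of all 5712 tested spans were.

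Of the genes reported as targets, 1 of 8 for miR-126 and 1 of 11 for miR-143 and miR-145 could be tested. Spred1 had a mean of 8.83 counts per library and a log2 change of 0.39 ± 0.44 (SE, edgeR adjusted p = 0.94), and Add3 had 11.7 counts and -0.24 ± 0.44 (SE, edgeR adjusted p = 0.99). These counts are short fragments over whole spans with introns and are not a measure of mRNA level, so changes of the targets were not detectable at this depth.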

How the data were processed

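Small RNA libraries of pooled hippocampal RNA followed the TruSeq protocol for small RNA and were read on a HiSeq instrument, per the labels. The raw column of each deposited file holds whole-number read counts per feature. The normalized column, a signal, equals the raw counts of its library times 1 constant in the deposited values, and served only as an alternative scaling. The submitters' processing notes name BWA, SAMtools 0.1.18, CASAVA 1.8.2 and DESeq2, with no roles given, and the build GRCm38 (mm10). The counting tool is not given in the sources used here.

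Features overlap and each of them counts the reads inside it, so the summed counts of 55101387 to 77428956 per library are not read depth. Distinct miRNA places held 1715423 to 2390624 counts per library. Spans of 1 gene or miRNA rows of 1 name with equal counts in all libraries were kept once. miRNA rows were joined where they share at least 10 nt of a place or a name. Within a genotype the libraries differed beyond counting noise (chi-square over degrees of freedom of 16.7 to 57.8 over miRNA places).

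The test was the two-sided quasi-likelihood test of edgeR 4.0.16 (R 4.3.3), with robust glmQLFit and TMM scaling, over the 6539 features that passed filterByExpr at a minimum count of 10. SE and 95% intervals follow from the F statistic. Ratios and shares within a library were compared by two-sided exact permutation (scipy 1.17.1). Binomial intervals are exact (Clopper-Pearson), the limit for a count of 0 is 3 counts, and both cover counting error only, since no source used here mentions molecular identifiers. As alternatives, DESeq2 1.42.0, other scalings and count filters, miRNA rows alone, joined rows, other denominators, the replicate number as a block, and each library left out were tried. The constants of the normalized column were added as a scaling after the data were seen.

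All members were named, with their host genes, the 5 nearest profiles of 2 members, and up to 3 of the most abundant features of each list. The members, the lists and the tests were chosen with earlier results of these data known.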

Additional observations from a re-analysis of the deposited data

How the results depend on the processing

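In all 16 alternatives 0 member rows were called, including each library left out (0 to 0) and the replicate number as a block (0 called, edgeR). Deviations of same-numbered libraries had correlations of -0.18, 0.08 and -0.16 over all features and -0.05, 0.26 and -0.26 over miRNA rows. These show no common pairing by number, but correlations of 3 pairs cannot exclude one. For ratios and shares the block leaves the difference as it is by construction, and 3 pairs cannot give an exact sign-flip p below 0.25 (0.25 to 1 here), so this says nothing about their stability.

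Of miRNA rows, 36 were called in the fit over all features and 16 on library totals alone, against 19, 1 and 8 without Dicer1-ifKO replicates 1, 2 and 3 and 70, 13 and 14 without WT replicates 1, 2 and 3.

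The sign of miR-145a-5p, -0.02 on the log2 scale, turned to 0.0242 with the size factors of DESeq2, 0.0240 on library totals alone, 0.0236 with no count filter, 0.0235 with the constants of the normalized column, 0.0243 in the DESeq2 test, 0.0272 at a minimum count of 50, 0.21 with TMM over miRNA rows and 0.22 with miRNA rows alone; the cause was not tested. Leaving out 1 library gave -0.0513 to 0.0427 for miR-145a-5p, -0.0014 to 0.69 for the miR-126a-5p place, -0.0725 to 0.27 for the miR-126a-3p place, 0.0073 to 0.46 for miR-143-3p and 0.07 to 0.68 for miR-145a-3p.

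The same gave differences in log2 ratio of 0.28 to 0.64 for miR-126 over other miRNAs, 0.27 to 0.57 for miR-143 and miR-145 over other miRNAs, -0.0901 to 0.21 for miR-126 over miR-143 and miR-145 and -0.41 to -0.09 for miR-145a-5p over miR-143-3p. The share of the miR-126a-3p place differed by -6.21 to -1.56 percentage points and that of miR-143-3p by -0.0102 to 0.0076. The other denominators and the rows as listed kept every direction. Depth limits miR-143-5p, miR-145b and the transcript spans, and 3 pools per genotype limit the rest.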
